A study of Mus musculus with 12 samples.

Results

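The sirtuins are a family of 7 mouse genes, Sirt1 to Sirt7, and they were followed here in brown adipose tissue of mice that carry a SIRT1 transgene. Members were taken by gene name and not by their values, as every probe whose symbol in the platform annotation is one of these genes. Of 25697 probes on the array, 9 belonged to 6 of the 7 genes, with 2 probes for Sirt5, 3 for Sirt6 and 1 each for Sirt1, Sirt2, Sirt3 and Sirt7. Sirt4 was not analysed here. Of the 8035 genes that could be tested, 5 were sirtuins (Sirt1, Sirt2, Sirt3, Sirt5 and Sirt7).

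Sirtuins remove acetyl or other acyl groups from lysines and consume NAD+ as they do so, which ties their activity to the metabolic state of the cell. SIRT1, SIRT6 and SIRT7 are found mainly in the nucleus, SIRT2 mainly in the cytoplasm, and SIRT3, SIRT4 and SIRT5 in mitochondria. In brown fat, a tissue that burns fuel in its mitochondria to make heat, SIRT1 and SIRT3 are known for their links to thermogenic transcription and to the control of mitochondrial enzymes.

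Total RNA of brown adipose tissue came from 6 wild-type (WT) mouse samples and from 6 samples labelled SIRT1Tg/Tg, called SIRT1tg. All were on the C57Bl/6N background and 3 months old, and the labels name no treatment. The labels give neither the promoter that drives the transgene nor the species of its coding sequence. They also leave unstated whether each sample is a different animal, and the p-values therefore reflect a spread that may be technical. Between 11221 and 12108 probes per array (43.7% to 47.1%) had a detection p under 0.05, which means a signal above nearly all negative control beads. Of 14 markers of brown fat and adipocytes, 12 passed the detection filter, and 11 of these, Ucp1 and Cidea among them, were detected on all 12 arrays. Ucp1, the uncoupling protein of brown fat, had a normalised log2 signal of 13.40 ± 0.40 in WT (SD, n = 6). Fabp4 was detected on 3 arrays of each group, Dio2 on at most 2 arrays in all and Prdm16 on 0. These counts describe the probes, which differ in how well they bind their target, and give no transcript abundance. The column names carry numbers of unstated meaning that form a low and a high range with 3 arrays of each group in each. The arrays are called WT 1 to WT 6 and SIRT1tg 1 to SIRT1tg 6 by that number, with 1 to 3 in the low range.

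The upstream sequence of Sirt1 is shown because Sirt1 alone among the tested sirtuins differed between the groups. It is the 250 bases before the annotated start of the endogenous gene on the minus strand (RefSeq, GRCm38.p6, chr10:63339036-63339285), and no other gene overlaps them. Capitals mark the E-box CACGTG, a motif known to be bound by MYC and by clock proteins.
Sirt1: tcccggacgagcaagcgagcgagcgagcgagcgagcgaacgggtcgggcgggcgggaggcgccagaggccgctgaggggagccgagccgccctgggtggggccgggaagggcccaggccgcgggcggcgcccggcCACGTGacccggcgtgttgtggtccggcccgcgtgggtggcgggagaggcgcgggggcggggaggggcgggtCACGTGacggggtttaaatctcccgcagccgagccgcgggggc
The E-box reads the same on both strands, and it occurred 2 times in this window. In the same window of 250 bases before the start, 6.02% of 32851 annotated promoters held it. The windows of the other 5 sirtuins with a probe held 0, which says only that these letters are not there. Whether any of this sequence is part of the transgene is not stated in the labels.

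Detection differed between the paralogues. The probes of Sirt1, Sirt2, Sirt3, Sirt5 and Sirt7 were detected on 6 of 6 arrays of each group. Of the 3 Sirt6 probes, ILMN_2684909 was detected on 2 WT and 2 SIRT1tg arrays, ILMN_2671176 on 2 WT and 0 SIRT1tg arrays, and ILMN_2684910 on 0 arrays. Signals before normalisation were set against the dimmest detected signal of the same array, here called the detection limit. In WT the Sirt3 probe lay at 8.16 to 14.7 times that limit, Sirt7 at 3.82 to 4.16 times, Sirt2 at 3.32 to 4.24 times, Sirt1 at 1.65 to 2.19 times, and the brighter Sirt5 probe at 1.53 to 2.59 times. The Sirt6 probes lay between 0.871 and 1.02 times the limit in WT and between 0.883 and 1.02 times in SIRT1tg. Probes differ in how well they bind their target, so these values show how far each probe stood above background and give no order of transcript abundance between sirtuins.

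**Figure D1:**
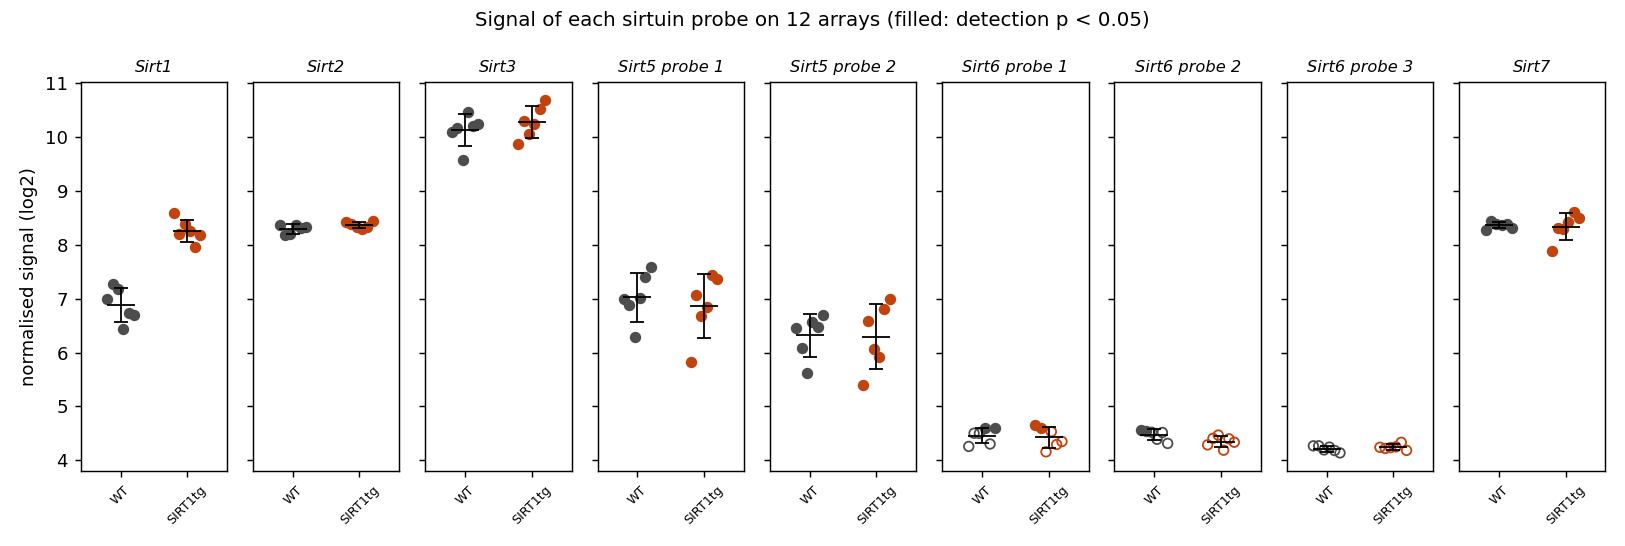
Normalised log2 signal (vertical axis) of each of the 9 sirtuin probes on the 6 WT and 6 SIRT1tg arrays, 1 point per array, with horizontal bars for the mean and error bars for the SD; filled points have a detection p under 0.05. Sirt1 is the only panel in which every SIRT1tg point lies above every WT point, and the 3 Sirt6 panels lie at 4.66 or lower.

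Sirt1, the nuclear deacetylase named by the transgene, rose 2.59-fold in SIRT1tg (95% interval 2.09 to 3.21). Its normalised log2 signals were 6.99, 7.27, 7.18, 6.43, 6.74 and 6.70 on WT 1 to WT 6 and 8.58, 8.20, 8.38, 8.26, 7.97 and 8.18 on SIRT1tg 1 to SIRT1tg 6. The lowest SIRT1tg array stood above the highest WT array, so the groups did not overlap. The WT mean was 6.88 ± 0.32 and the SIRT1tg mean 8.26 ± 0.21 (SD over 6 arrays each). The log2 fold change of 1.37 ± 0.14 (SE) had an adjusted p of 0.00049 by limma. An exact two-sided permutation test gave p = 0.00216, the minimum for 6 arrays against 6. In signal over the detection limit the same probe moved from 1.65 to 2.19 times in WT to 3.09 to 4.07 times in SIRT1tg. The gene was read by the single probe ILMN_2643159, and it was not tested whether this probe reads the transgene, the endogenous transcript or both. In RNA of whole tissue, a change in the share of cells that express a gene and a change per cell cannot be told apart. Of the 5 tested sirtuins 1 passed the threshold, where 0.149% of all tested genes did (12 of 8035). Groups that did not overlap were also found for 1 of 5 sirtuins and for 1.32% of all tested genes. In both counts the 1 sirtuin was Sirt1, the gene that the transgene names, so neither count describes the rest of the family.

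Sirt7, a nuclear deacetylase linked to ribosomal RNA synthesis, gave log2 signals of 8.27, 8.43, 8.38, 8.37, 8.39 and 8.31 on WT 1 to WT 6 and 7.88, 8.32, 8.28, 8.42, 8.60 and 8.50 on SIRT1tg 1 to SIRT1tg 6. The WT arrays lay close together, whereas SIRT1tg 1 was the lowest and SIRT1tg 5 the highest of all 12, and the groups overlapped. The log2 fold change was -0.03 ± 0.11 (SE; 95% interval -0.26 to 0.21), with an adjusted p of 0.937 by limma and an exact permutation p of 0.859. The SD was 0.06 in WT and 0.25 in SIRT1tg (n = 6 each), and this difference in spread was not tested. For Sirt6, a chromatin deacetylase known for its part in DNA repair and glucose metabolism, the highest log2 signal of any probe was 4.60 in WT and 4.66 in SIRT1tg. No difference was tested for it, because no Sirt6 probe reached the 6 arrays with detection that the filter asks for.

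Sirt2, the cytoplasmic tubulin deacetylase, gave log2 signals of 8.37, 8.18, 8.20, 8.37, 8.32 and 8.33 on WT 1 to WT 6 and 8.42, 8.39, 8.33, 8.30, 8.33 and 8.45 on SIRT1tg 1 to SIRT1tg 6. Of the SIRT1tg arrays, 3 lay above all WT arrays and 3 lay within the WT range. The groups differed by a log2 fold change of 0.08 ± 0.07 (SE; 95% interval -0.08 to 0.24), which did not pass the test (adjusted p = 0.695 by limma; exact permutation p = 0.106).

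Sirt3, the main deacetylase of the mitochondrial matrix, gave log2 signals of 10.10, 10.16, 9.58, 10.45, 10.20 and 10.25 on WT 1 to WT 6 and 9.87, 10.29, 10.06, 10.24, 10.52 and 10.69 on SIRT1tg 1 to SIRT1tg 6. WT 3 was the lowest array, and 4 of the 6 SIRT1tg arrays lay within the WT range. Between the groups the log2 fold change was 0.15 ± 0.16 (SE; 95% interval -0.18 to 0.49; adjusted p = 0.706 by limma; exact permutation p = 0.396).

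Sirt5, which removes succinyl, malonyl and glutaryl groups in mitochondria, had the largest SD of the 5 tested sirtuins in both groups, 0.46 in WT and 0.59 in SIRT1tg (n = 6 each). Its brighter probe ILMN_2711045 gave 6.998, 6.87, 6.28, 7.01, 7.40 and 7.59 on WT 1 to WT 6 and 5.83, 7.07, 6.67, 6.84, 7.44 and 7.37 on SIRT1tg 1 to SIRT1tg 6. SIRT1tg 1 was the lowest array, and the other 5 SIRT1tg arrays lay within the WT range. This gave a log2 fold change of -0.16 ± 0.26 (SE; 95% interval -0.71 to 0.40; adjusted p = 0.833 by limma; exact permutation p = 0.63). The dimmer probe ILMN_2707079 gave -0.02 ± 0.25 (SE), and about the group means the signals of both Sirt5 probes followed each other over the 12 arrays (r = 0.93, as a description).

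**Figure D2:**
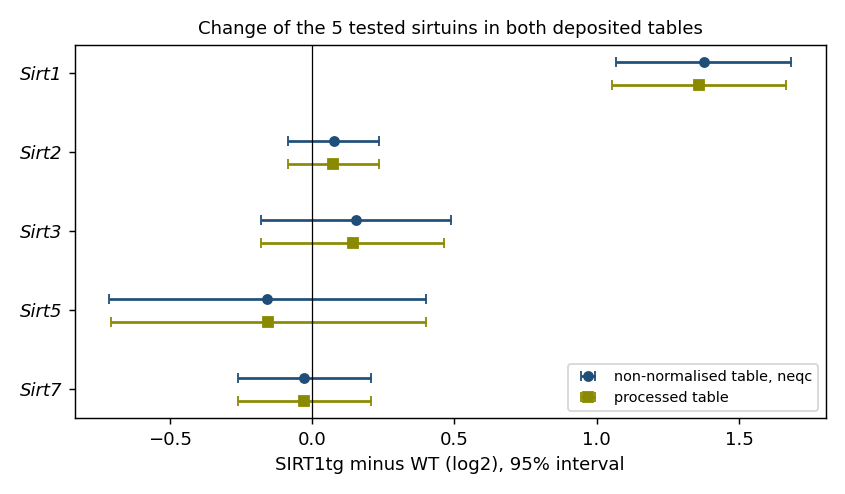
Log2 fold change, SIRT1tg minus WT (horizontal axis), of the 5 tested sirtuins with 95% intervals, from the non-normalised table and from the processed table. The Sirt1 interval begins at 1.07 in the first and 1.05 in the second, while the intervals of Sirt2, Sirt3, Sirt5 and Sirt7 include 0 in both.

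No other tested sirtuin passed the test, and the difference from Sirt1 was tested on its own, within each array. The log2 fold change of Sirt1 exceeded that of Sirt2 by 1.30 ± 0.18 (SE; adjusted exact permutation p = 0.00433). It exceeded that of Sirt7 by 1.402 ± 0.223 (adjusted exact permutation p = 0.00433). The excess was 1.22 ± 0.31 over Sirt3 and 1.53 ± 0.43 over Sirt5 (SE; adjusted exact permutation p = 0.00649 each). These 4 comparisons were adjusted together. Within a number range 3 arrays stood against 3, for which 0.1 is the smallest p. There the excess lay between 1.10 and 1.44 in the low range and between 1.33 and 1.63 in the high range, with p = 0.1 in all 8 exact tests.

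The processed table holds values of the same arrays, so it is no independent test. It gave nearly the same values. The mean Sirt1 signal there, on a linear scale, was 117.1 ± 27.9 for WT and 321.9 ± 48.6 for SIRT1tg (SD, n = 6 per group), with a highest WT value of 152.7 and a lowest SIRT1tg value of 258.2. The ratio of means was 2.75 for Sirt1, 1.06 for Sirt2, 1.11 for Sirt3, 0.993 for Sirt7, and 0.910 and 1.02 for the brighter and dimmer Sirt5 probes. On the log2 scale Sirt1 rose by 1.36 ± 0.14 (SE; adjusted p = 0.000556 by limma), and it was again the 1 sirtuin of 5 past the threshold, where 0.162% of all tested genes passed. The Sirt6 probe values lay between -6.78 and 10.96 in that table, around 0.

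Of the 5 tested sirtuins, 1 also differed between the number ranges. Sirt1 was lower by 0.39 ± 0.10 (SE) in the high range (adjusted p = 0.0474 by limma), where 5.03% of all tested genes passed the same test. Its means in the low and the high range were 7.15 and 6.62 in WT and 8.39 and 8.13 in SIRT1tg. The high range minus the low range was 0.38 ± 0.12 for Sirt3 and 0.65 ± 0.20 for Sirt5, which missed the threshold (adjusted p = 0.0789 and 0.0715 by limma). The values were 0.03 ± 0.07 for Sirt2 and 0.17 ± 0.10 for Sirt7. The difference in Sirt1 between the genotypes was 1.24 in the low range and 1.51 in the high range (interaction adjusted p = 0.797 by limma). With the range as a block its adjusted p was 1.1e-05, and the same 1 of 5 sirtuins passed, where 1.05% of all tested genes did.

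Within SIRT1tg, the arrays with more Sirt1 signal had less Sirt5 and Sirt7 signal. For Sirt5 r was -0.95 (adjusted exact permutation p = 0.0278) and rho was -1 (adjusted p = 0.0556, exact permutation). For Sirt7 r was -0.93 (adjusted exact permutation p = 0.0486) and rho was -0.943 (adjusted p = 0.0667, exact permutation). For Sirt3 r was -0.86 (adjusted exact permutation p = 0.0972) and for Sirt2 it was 0.30. The array SIRT1tg 1 had the highest Sirt1 signal of its group and the lowest signals of Sirt3, Sirt5 and Sirt7. SIRT1tg 5 and SIRT1tg 6 had the lowest Sirt1 and the highest Sirt5 and Sirt7 signals of the group. The mean centred log2 signal of skeletal muscle markers was 2.90 and 0.09 on them, and -1.56 or lower on the other SIRT1tg arrays. The part of muscle in these correlations was not tested. Without SIRT1tg 1 and SIRT1tg 5, the arrays farthest from the Sirt1 median, r was -0.91 with Sirt5 and -0.65 with Sirt7. With median scaling in place of quantile normalisation, r was -0.56 with Sirt5 and -0.48 with Sirt7 (adjusted p = 0.569 each, exact permutation), so both calls were lost. Among the other 8034 tested genes, 0.61% had an r with Sirt1 at or below that of Sirt5, and 0.971% at or below that of Sirt7.

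In WT no sirtuin passed this test against Sirt1. There r was -0.82 with Sirt2 (adjusted exact permutation p = 0.143), -0.72 with Sirt3, -0.60 with Sirt5 and 0.26 with Sirt7. Among the remaining sirtuins within SIRT1tg, r was 0.96 for Sirt5 with Sirt7 and 0.93 for Sirt3 with Sirt5 (adjusted exact permutation p = 0.0463 each). With median scaling these were 0.99 and 0.93, and the second missed the threshold (adjusted exact permutation p = 0.102). In all, 20 such relations were adjusted together, each over 6 arrays, and the difference in r between the groups was not tested. Each group and range holds 3 arrays, too few for a value of its own. About the means of group and range, r over the 12 arrays was -0.48 for Sirt1 with Sirt5, -0.51 for Sirt1 with Sirt7 and 0.67 for Sirt5 with Sirt7, given as a description.

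**Figure D3:**
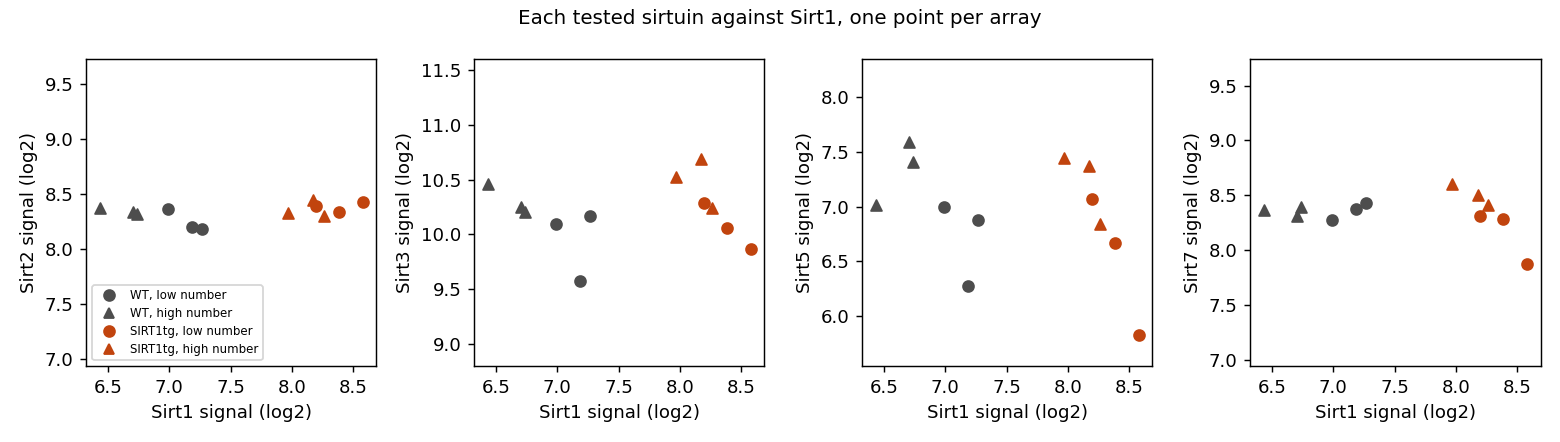
Normalised log2 signal of Sirt2, Sirt3, Sirt5 and Sirt7 (vertical axes, equal spans) against that of Sirt1 (horizontal axis), 1 point per array, with circles for the low and triangles for the high number range. The WT and SIRT1tg arrays form separate clusters along the Sirt1 axis, and within SIRT1tg the array with the most Sirt1 signal (8.58) has the least Sirt5 (5.83) and Sirt7 (7.88) signal.

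The genes whose signals were most like each sirtuin's, by Pearson r over the 12 arrays about the group means, are given as a description. For Sirt1 they were Brd2, which encodes a reader of acetylated histones (r = 0.936), Upf2, of nonsense-mediated mRNA decay (r = 0.933), and Mtmr3, a phosphoinositide phosphatase (r = 0.933). None of these passed the test between genotypes, with log2 fold changes of 0.02, 6.5e-05 and 0.06 and adjusted p-values of 0.896 or more by limma. For Sirt3 they were Gldn (r = 0.958), Paxx, a DNA end-joining factor (r = 0.95), and Clec2e (r = 0.944). For Sirt5 they were Ttc8, a subunit of the BBSome of cilia (r = 0.964), Commd10 (r = 0.963) and Tmem223 (r = 0.946). For Sirt7 they were Ccdc17 (r = 0.962), Herpud1, of the endoplasmic reticulum stress response (r = 0.931), and Tha1 (r = 0.907). For Sirt2 they were Btbd10 (r = 0.922), Klhl12, a substrate adaptor of a ubiquitin ligase (r = 0.854), and Fam219b (r = 0.84). Only the group means were subtracted, so differences between the low and the high number range enter these r values.

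Among genes of NAD+ synthesis and other NAD+ consumers, which set the supply of the sirtuin cosubstrate, 1 of the 10 tested of 20 listed passed the threshold, where 0.149% of all tested genes did. The list was chosen with earlier results of these data known, so this count is given as a description. The gene that passed was Nampt, whose enzyme sets the pace of NAD+ salvage from nicotinamide. Its log2 signals ran from 6.48 to 7.19 in WT (median 6.78) and from 7.42 to 7.79 in SIRT1tg (median 7.64). The groups did not overlap, as for 1.32% of all tested genes. The log2 fold change was 0.79 ± 0.14 (SE; adjusted p = 0.0431 by limma). When 1 array was left out it passed in 2 of the 12 fits, those without WT 1 or without WT 4, and missed the threshold in the others, with an adjusted p of up to 0.106 by limma. The next by p were Nadsyn1, which makes NAD+ from its acid precursor (0.25 ± 0.14), Nmrk1, a nicotinamide riboside kinase (0.16 ± 0.12), and Nadk, which makes NADP+ (-0.12 ± 0.09). The median over the 10 genes was 0.11, beside -0.01 over all 8035 tested genes.

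Among listed substrates of SIRT1, 17 of 22 were tested and 0 passed, where 0.149% of all tested genes did. At an unadjusted p under 0.05 lay 5 of the 17, beside 15.2% of all tested genes. Their median log2 fold change was 0.08. The circadian repressor Per2 had 1.05 ± 0.32 (SE; adjusted p = 0.138 by limma), and the signalling receptor Notch1 had 0.59 ± 0.17 (adjusted p = 0.124). Ppargc1a, the coactivator of mitochondrial and thermogenic genes, had 0.96 ± 0.38 (adjusted p = 0.235), and Xrcc6, which encodes the DNA repair protein Ku70, had 0.35 ± 0.14 (adjusted p = 0.228). Ppargc1a reached 11.14 and Per2 8.73 on SIRT1tg 1, in each case the highest of its group, where the medians were 9.16 and 6.95. Xrcc6 was the lowest of its group on that array (10.46, median 10.75), and Notch1 was at 7.45, below its group's highest of 7.59. SIRT1tg 1 is the array with the most Sirt1 signal, and a relation of these genes to that signal was not tested.

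Among listed regulators of SIRT1, 9 of 13 were tested and 0 passed, where 0.149% of all tested genes did. At an unadjusted p under 0.05 lay 2 of the 9, beside 15.2% of all tested genes, and the median was -0.12. Dyrk1a, a kinase known to phosphorylate SIRT1, had a log2 fold change of 0.48 ± 0.12 (SE; adjusted p = 0.0835 by limma). Its log2 signals ran from 4.59 to 5.13 in WT and from 5.15 to 5.66 in SIRT1tg, so the groups did not overlap, as for 1.32% of all tested genes. Dyrk1a passed with array weights (adjusted p = 0.0374 by limma) and without WT 1 (adjusted p = 0.0382 by limma). Its signals were dim, as the Sirt6 probes at the detection limit reached 4.66. Without background correction its log2 fold change was 0.14 ± 0.04 (SE; adjusted p = 0.141 by limma). The next were Elavl1, which encodes an RNA-binding protein that stabilises Sirt1 mRNA (0.33 ± 0.15), the cell cycle transcription factor E2f1 (-0.21 ± 0.12), and Mapk8, which encodes the kinase JNK1 (-0.13 ± 0.10).

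Among listed substrates of the mitochondrial sirtuins, 13 of 18 were tested and 0 passed, where 0.149% of all tested genes did. At an unadjusted p under 0.05 lay 2 of the 13, near the 15.2% of all tested genes, and the median was -0.02. Mccc1, a subunit of the carboxylase of leucine breakdown, had a log2 fold change of 0.86 ± 0.18 (SE; adjusted p = 0.0582 by limma). Its log2 signals ran from 6.30 to 6.94 in WT and from 6.84 to 8.10 in SIRT1tg, and the groups overlapped. It passed when the range entered the fit as a block (adjusted p = 0.0432 by limma), with array weights (0.0254), with the mean signal of skeletal muscle markers as a covariate (0.0396), without WT 1 (0.0275) and without SIRT1tg 1 (0.0286). In the low range alone its log2 fold change was 0.54 (adjusted p = 0.448 by limma) and in the high range alone 1.18 (adjusted p = 0.149). Acss1, the mitochondrial acetyl-CoA synthetase, had 0.25 ± 0.11, the malonyl-CoA decarboxylase gene Mlycd had 0.20 ± 0.11, and the aldehyde dehydrogenase gene Aldh2 had -0.15 ± 0.08.

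Of the zinc-dependent histone deacetylases, the other large family of lysine deacetylases, 10 of 11 were tested and 0 passed, where 0.149% of all tested genes did. At an unadjusted p under 0.05 lay 2 of the 10, beside 15.2% of all tested genes, and the median was 0.03. Hdac6, which shares tubulin as a substrate with SIRT2, had 0.54 ± 0.15 (SE; adjusted p = 0.106 by limma) by the brighter of its 2 detected probes. The mean of these probes had 0.34 ± 0.11 (SE; adjusted p = 0.177 by limma). By the brighter probe Hdac6 passed with array weights (adjusted p = 0.0351 by limma) and without WT 1 (adjusted p = 0.0177 by limma). The class I members Hdac2, Hdac3 and Hdac1 had 0.22 ± 0.10, 0.17 ± 0.09 and -0.20 ± 0.12.

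**Figure D4:**
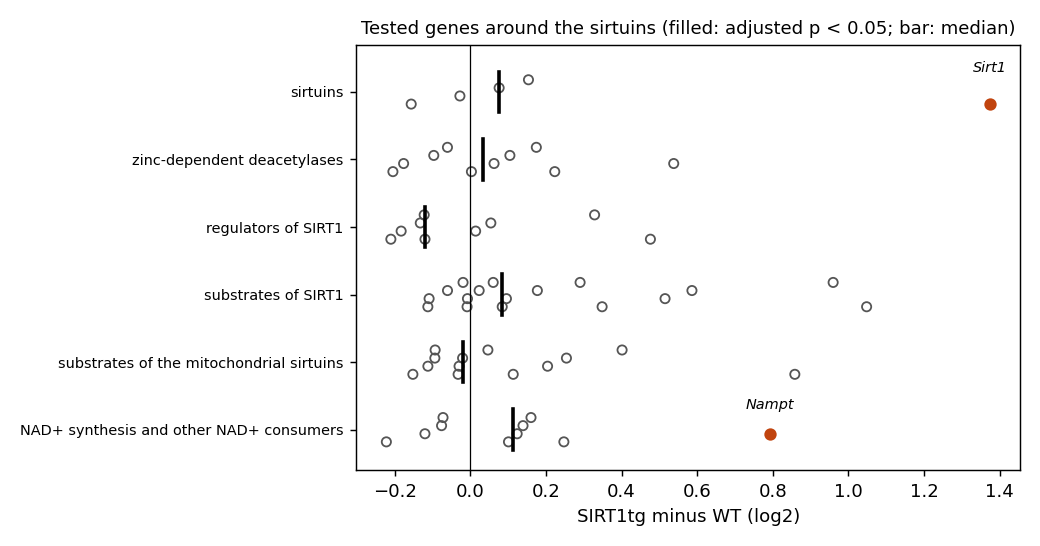
Log2 fold change, SIRT1tg minus WT (horizontal axis), of each tested gene of the sirtuins and of 5 lists around them, 1 point per gene, with vertical bars for the list medians. The filled points, Sirt1 (1.37) and Nampt (0.79), passed the threshold of an adjusted p under 0.05.

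Markers of other cell types also varied between the samples. All 13 tested of 15 skeletal muscle markers had a negative log2 fold change (median -1.34), and 0 passed the test, which 0.149% of all tested genes passed. The mean centred log2 signal of these markers ran from -1.82 to 2.55 in WT and from -1.79 to 2.90 in SIRT1tg. With this muscle signal as a covariate Sirt1 rose by 1.29 ± 0.14 (SE; adjusted p = 0.00146 by limma), and Sirt3 had 0.28 ± 0.14 (adjusted p = 0.366). Of 8 tested macrophage markers 7 had a negative value (median -0.56), and 0 passed, with 5 of 8 at an unadjusted p under 0.05, where 15.2% of all tested genes lay. Their mean centred signal ran from -0.40 to 1.12 in WT and from -0.63 to 0.31 in SIRT1tg. Of 8 tested endothelial markers 5 had a positive value (median 0.12), and 0 passed, with 2 at an unadjusted p under 0.05. The part of macrophages and endothelial cells in the sirtuin values was not tested.

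**Figure D5:**
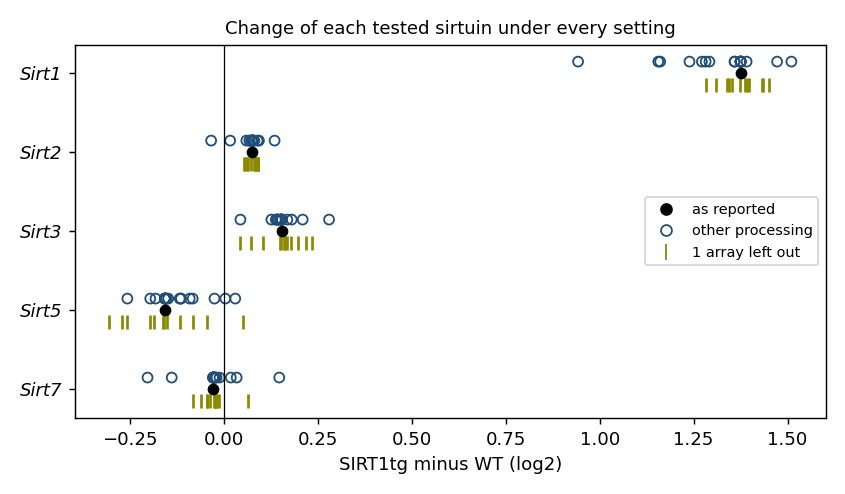
Log2 fold change, SIRT1tg minus WT (horizontal axis), of the 5 tested sirtuins as reported (black), under other processing (open circles) and with 1 array left out (ticks). Sirt1 lies between 0.94 and 1.51 throughout, and the points of Sirt2, Sirt5 and Sirt7 fall on both sides of 0.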

How the data were processed

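Biotin-labelled RNA of 12 samples was hybridised to Illumina arrays. The authors deposited mean bead signals before normalisation, which the file headers give as intensity. Beside each stands the authors' detection p-value. The intensity values of a second table had been processed by the authors. Of these, 26.1% lie at or below 0, the upper quartile of the first column is 57.7, and the column medians run from 5.705 to 5.759. By these values the table was background-subtracted and normalised, by a method not given in the sources used here. GenomeStudio is named in the submitters' processing notes. The column medians of that table were 5.757, 5.743, 5.735, 5.752, 5.752 and 5.746 (WT replicates 1 to 6 of the labels) and 5.738, 5.745, 5.733, 5.705, 5.759 and 5.732 (SIRT1tg replicates 1 to 6). Columns of the non-normalised table give group and number but no replicate.

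Signals were normalised with neqc of limma 3.58.1 (R 4.3.3; offset 16). Probes that had 1 gene symbol were kept if detected (p under 0.05) on 6 or more of the 12 arrays, and the brightest represented its gene. Groups were compared with lmFit and eBayes, with Benjamini-Hochberg adjustment over 8035 genes and a threshold of 0.05. Processed values were tested as log2 of the value, set to 0 if negative, plus 16. Single values were also tested by exact permutation over 924 splits, and correlations over 720 pairings. Folds of dim probes are compressed by background and offset. The code was tested on simulated data. All sirtuins, up to 4 members of each list with the smallest p, and the 3 genes most like each sirtuin are named. Members and lists were chosen with earlier results of these data known. Alternatives concerned background, normalisation, starting values, filters, probe summary, prior, array weights, number range, muscle signal and single arrays; correlations among sirtuins other than Sirt1 and the settings for Nampt, Mccc1, Dyrk1a and Hdac6 were added after the data were seen. The number of arrays limits the precision.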

Additional observations from a re-analysis of the deposited data

How the results depend on the processing

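Sirt1 kept its direction under every alternative run, with a log2 fold change of 0.94 to 1.51 and of 1.28 to 1.45 when 1 array was left out. It lost the call only in the low number range alone (1.24, adjusted p = 0.0869 by limma), where 0 sirtuins passed. The 4 other tested sirtuins passed under none. Sirt2 turned to -0.033 with median scaling, which moves the median of all genes from -0.01 to -0.10. Sirt5 turned to 0.031 with array weights and 0.0045 with muscle signal as a covariate. Sirt7 turned to 0.019 with array weights, 0.15 in the high number range alone and 0.035 with the muscle covariate. Leaving out 1 array gave -0.305 to 0.052 for Sirt5 and -0.081 to 0.063 for Sirt7, positive without SIRT1tg 1. The excess of Sirt1 was 1.10 and 1.49 over Sirt2, 1.11 and 1.33 over Sirt3, 1.43 and 1.63 over Sirt5, and 1.44 and 1.36 over Sirt7 in the low and high range alone, where 3 against 3 cannot pass. Median scaling took the correlations of Sirt1 within SIRT1tg to -0.56 (Sirt5) and -0.48 (Sirt7), and turned Sirt2 with Sirt7 to 0.45 in WT, and Sirt2 with Sirt5 to 0.32 and with Sirt7 to 0.35 in SIRT1tg. Cyclic loess turned Sirt2 with Sirt3 to -0.026 in SIRT1tg. The 12 genes called became 3 with median scaling, 27 with stricter detection, 24 with a robust trended prior and 163 with array weights. They became 84 with the range as a block, 80 with the muscle covariate, and 1 and 4 in the low and high range alone. When 1 array was left out they became 3 to 151 (151 without WT 1). The 13 genes called in the processed values became 5 with a pseudocount of 1. The cause of these shifts was not tested. Signal over background limits Sirt6, at the detection limit, Sirt5, at most 2.59 times that limit, and Sirt1 in WT, at 1.65 to 2.19 times, whose change was 0.94 without background correction. Dyrk1a is limited likewise, with a change of 0.14 without background correction.

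By the labels, same-numbered samples in the processed table share only a number. Their sirtuin values follow arrays 1 to 6 of the same group in order. Replicates 1 to 3 of both groups thus match the low number range, and a block by replicate also takes up the range. Deviations of same-numbered samples correlated at -0.13 to 0.49, 4 of 6 pairs over 0.1, and 3 correlated best with their own number. The replicate block gave 5 called genes on the processed values, against 13 without it, and changed no sirtuin call (Sirt1 1.36, adjusted p = 0.00275 by limma). Nampt lost its call under 6 of 18 alternatives to the processing, and kept it in only 2 of the 12 fits with 1 array left out. Mccc1 gained a call under 5 alternatives, and Dyrk1a and Hdac6 under 2 each, where fits with 1 array left out are included.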
